A study of Mus musculus with 13 samples.

Results

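Of the 19737 genes in a table of mouse microglial gene expression, 8 encode central components and receptors of the complement system and were taken by gene symbol: C1qa, C1qb, C1qc, C4b, C3, Cfp, C3ar1 and C5ar1. All 8 were listed, and all 8 had a mean of at least 1 FPKM (fragments for each kilobase of gene, scaled to the depth of the library), the level above which 10817 genes were tested. Microglia are the resident macrophages of the brain. RNA was measured after depletion of ribosomal RNA in 13 libraries from 4 groups of mice.

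The first group was wild type mice that received EGFP from the viral vector AAV PHP.eB, which reaches the brain from the blood (wild type EGFP, n = 3). The second was 5xFAD mice given the same EGFP virus (5xFAD EGFP, n = 2). 5xFAD mice carry mutant human genes that are active in neurons, and they form the amyloid plaques seen in Alzheimer's disease. The third was 5xFAD mice given AAV PHP.eB-circPOLR2A, which encodes a circular RNA (5xFAD circRNA, n = 4). Their treatment labels end in different pairs of numbers, so these libraries were grouped by title. The fourth was 5xFAD mice with a knockout of PKR, the protein kinase that double-stranded RNA switches on (5xFAD PKR knockout, n = 4). No vector is named for this group, so it differs from 5xFAD EGFP in the knockout and possibly in the virus. Library names are given for the PKR knockout samples alone, so a library batch cannot be told apart from that genotype. Age, sex, the way the cells were isolated and whether each library came from a separate animal are not given in the sources used here. The p-values below therefore measure the spread between these libraries, which may be partly technical. The series asks what delivery of a double-stranded circular RNA to neurons does to microglia in 5xFAD mice.

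Complement is a chain of secreted proteins that tag targets for removal. In the classical pathway C1q binds a target, and C4 and then C3 are cleaved and deposited on it. In the alternative pathway properdin steadies the enzyme that cleaves C3. The small fragments released from C3 and C5 act on the receptors C3aR1 and C5aR1 of myeloid cells. In the brain, C1q and C3 are known for tagging synapses that microglia then engulf.

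Depth ranged from 45.2 to 70.0 M fragments (M for mega), with 57.7 to 70.0 M in the PKR knockout libraries and 45.2 to 54.9 M in all others. The FPKM values of a library summed to between 123352 and 170775. All 10 microglia markers were above 0 in all libraries and summed to between 2822 and 4817 FPKM. One library stood apart: in wild type EGFP replicate 3 the microglia markers summed to 2822 FPKM, against 4423 and 4499 in the other wild type libraries, and 8 oligodendrocyte markers summed to 1623 FPKM, against 405 and 365. Calls that wild type EGFP replicate 3 decides are given with and without it. Eif2ak2, the gene of PKR, stood at 3.35, 4.61, 3.31 and 4.16 FPKM in the PKR knockout libraries, at 5.18, 5.23 and 4.14 FPKM in wild type EGFP, at 6.49 and 6.59 FPKM in 5xFAD EGFP and at 7.37 to 8.11 FPKM in 5xFAD circRNA. The knockout libraries lay below all other 5xFAD libraries and overlapped with wild type, with a mean 0.795 of the wild type mean. On the log2 scale the knockout differed by -0.64 from 5xFAD EGFP, which did not pass the limma test (adjusted p = 0.0644), and by -0.27 from wild type EGFP, which did (adjusted p = 0.0486). Which part of the gene is deleted is not given in the sources used here.

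All 8 genes lie on the minus strand of the mouse genome (build GRCm38, GENCODE M21 annotation) and are protein-coding. C1qb (chr4:136880129-136886187), C1qc (chr4:136889804-136893065) and C1qa (chr4:136895917-136898803) are neighbours on chromosome 4. C4b (chr17:34728380-34743882) and C3 (chr17:57203970-57228136) lie on chromosome 17, C3ar1 (chr6:122847138-122856161) on chromosome 6, C5ar1 (chr7:16246743-16259540) on chromosome 7 and Cfp (chrX:20925454-20931555) on the X chromosome. RefSeq start-site windows in build GRCm38.p6 were at hand for 6 of the 8, all but C1qa and C4b. The upstream bases of C1qb and C1qc are shown because these neighbouring genes moved together below, and those of C3ar1 because it was higher in every comparison with wild type. Each is written 5′ to 3′ on the strand of its gene, ending before the RefSeq or the GENCODE start, whichever lies further upstream (C1qb chr4:136886201-136886450, C1qc chr4:136893066-136893164 and C3ar1 chr6:122856162-122856407, minus strand). Capitals mark a match to the PU.1 string read on the other strand.
C1qb: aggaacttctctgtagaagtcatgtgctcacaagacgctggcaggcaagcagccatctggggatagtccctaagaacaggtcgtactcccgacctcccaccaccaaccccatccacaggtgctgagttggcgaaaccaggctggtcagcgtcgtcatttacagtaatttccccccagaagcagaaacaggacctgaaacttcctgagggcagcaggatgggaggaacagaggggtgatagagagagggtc
C1qc: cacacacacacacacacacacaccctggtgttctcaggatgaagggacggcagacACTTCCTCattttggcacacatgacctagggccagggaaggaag
C3ar1: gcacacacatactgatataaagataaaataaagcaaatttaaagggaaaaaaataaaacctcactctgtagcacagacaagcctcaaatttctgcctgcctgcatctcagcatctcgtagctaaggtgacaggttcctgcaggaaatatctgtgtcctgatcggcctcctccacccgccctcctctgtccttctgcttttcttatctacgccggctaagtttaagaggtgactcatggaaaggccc

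In the 250 bases before the RefSeq start, 5 strings were searched on both strands: GAGGAAGT, bound by the myeloid factor PU.1, the interferon-stimulated response element (GAAA, any 2 bases, GAAA), an NF-kB site (GGGA, any 1 base, TTTCC), TTGCNNAA (C/EBP) and CACGTG (the E-box). No string contains another. The PU.1 string was found in 1 of the 6 windows, that of C1qc, with its first base at position -195 from the RefSeq start. It was found in 2.44% of 32851 windows of all genes. The C/EBP string was found in 1 of 6, that of C3 at position -45, and in 9.56% of all windows. The interferon-stimulated response element (2.98% of all windows), the NF-kB site (0.356%) and the E-box (6.02%) were in none of the 6. For C1qc and C5ar1 only the first 99 and 48 of these 250 bases lie upstream of the GENCODE gene, and the rest lie inside it. These are matches of letters only.

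Against wild type EGFP, most of the 8 genes had higher means in mice of the 5xFAD model, and Cfp had lower ones. In 5xFAD EGFP, 2 of the 8 rose (C4b and C3ar1) and none fell in limma tests of log2(FPKM + 1), called at an adjusted p under 0.05. Of all 10817 genes tested, 14.0% were called there, 7.65% higher and 6.35% lower. The libraries of the 2 groups did not overlap for 5 of the 8, with C1qa, C1qc, C4b and C3ar1 above and Cfp below, beside 37.6% of all genes (16.5% above and 21.1% below).

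In 5xFAD circRNA, 5 of the 8 rose (C1qa, C1qb, C1qc, C4b and C3ar1) and Cfp fell, where 25.8% of all genes were called (17.8% higher and 8.05% lower). The libraries did not overlap wild type for 5 of the 8, C1qa, C1qb, C1qc and C3ar1 above and Cfp below, beside 28.2% of all genes (20.2% above and 8.0% below). The same 5 rose and Cfp fell in 5xFAD PKR knockout, where 37.0% of all genes were called (17.5% higher and 19.4% lower). Those 6 genes were also the ones without overlap, beside 40.9% of all genes (19.8% above and 21.1% below). The 3 comparisons share the wild type libraries, so they are not independent of each other.

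The median log2 change of the 8 against wild type EGFP was 0.42 in 5xFAD EGFP, 0.65 in 5xFAD circRNA and 0.65 in 5xFAD PKR knockout, beside -0.03, 0.02 and -0.05 for all genes tested. Scaling all libraries to the same FPKM sum moved the median of all genes to -0.17, -0.20 and -0.24. On that scale the called members were C3ar1 and Cfp in 5xFAD EGFP and C1qa, C4b, C3ar1 and Cfp in 5xFAD circRNA. In 5xFAD PKR knockout they were the 3 C1q chains, C3ar1 and Cfp. Of all genes, limma called 3733, 5714 and 6639 on that scale, most of them lower, against 1514, 2796 and 3997 without it.

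**Figure D1:**
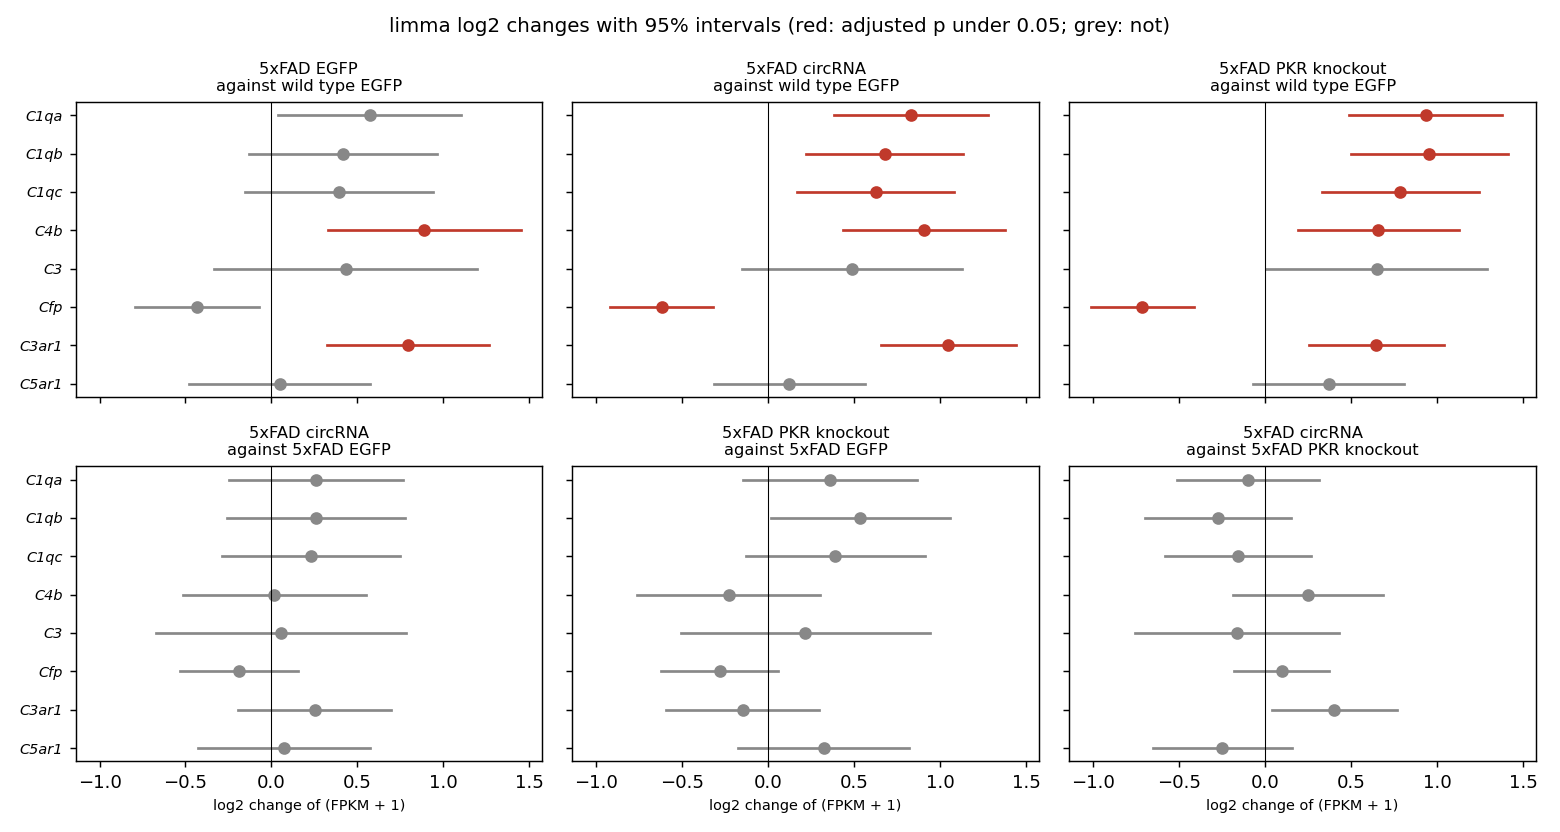
Log2 changes of (FPKM + 1) with 95% intervals (x axes) for the 8 complement genes (y axes) in the 6 comparisons, from limma fits, with red for an adjusted p under 0.05 and grey for the rest. The panels against wild type hold 2 red points for 5xFAD EGFP, 6 for 5xFAD circRNA and 6 for 5xFAD PKR knockout, and the panels between groups of 5xFAD mice hold none.

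C1qa, C1qb and C1qc encode the 3 chains of C1q, the recognition molecule that starts the classical pathway and that microglia make in the brain. They were among the most abundant messages of these libraries: by mean FPKM over the 13 libraries C1qb ranked 12, C1qa 17 and C1qc 29 of all listed genes. All 3 rose in 5xFAD circRNA and in 5xFAD PKR knockout against wild type EGFP, by 1.51-fold to 1.90-fold. In 5xFAD EGFP none of the 3 passed the test. In bulk RNA, fewer cells of a type and less RNA for each cell cannot be told apart.

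C1qa stood at 738, 802 and 465 FPKM in wild type EGFP (mean 668 ± 179, SD, n = 3) and at 984 and 949 FPKM in 5xFAD EGFP (967 ± 24.7, n = 2). It stood at 1081, 1344, 1358 and 909.5 FPKM in 5xFAD circRNA (1173 ± 217, n = 4). In 5xFAD PKR knockout it stood at 1244, 1242, 1229 and 1253 FPKM (1242 ± 9.82, n = 4). All 10 libraries of 5xFAD mice were above all wild type libraries, and the PKR knockout libraries lay within a coefficient of variation of 0.791%. The limma change against wild type EGFP was 0.83 ± 0.21 (SE) in 5xFAD circRNA (adjusted p = 0.0106) and 0.93 ± 0.21 in 5xFAD PKR knockout (adjusted p = 0.00420). It was 0.57 ± 0.25 in 5xFAD EGFP (limma, adjusted p = 0.159).

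C1qb, the B chain, stood at 886, 989 and 595 FPKM in wild type EGFP (823 ± 205, n = 3) and at 1186 and 975 FPKM in 5xFAD EGFP (1081 ± 149, n = 2). It stood at 1136, 1412, 1644 and 1043 FPKM in 5xFAD circRNA (1309 ± 273, n = 4). It stood in 5xFAD PKR knockout at 1638, 1553, 1525 and 1527 FPKM (1561 ± 53.0, n = 4). One 5xFAD EGFP library overlapped wild type, while the circRNA and PKR knockout libraries did not. For C1qb, limma gave a change against wild type EGFP of 0.68 ± 0.21 in 5xFAD circRNA (adjusted p = 0.0324), 0.95 ± 0.21 in 5xFAD PKR knockout (adjusted p = 0.00423) and 0.42 ± 0.25 in 5xFAD EGFP (adjusted p = 0.326).

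C1qc, the C chain, stood at 478, 470.4 and 269 FPKM in wild type EGFP (406 ± 118, n = 3) and at 556 and 479 FPKM in 5xFAD EGFP (518 ± 53.9, n = 2). It stood at 553, 669, 750.1 and 486 FPKM in 5xFAD circRNA (614 ± 118, n = 4). The PKR knockout libraries stood at 673, 666, 675 and 694 FPKM (677 ± 11.8, n = 4). The highest wild type and the lowest 5xFAD EGFP library almost met. The C1qc change against wild type EGFP was 0.62 ± 0.21 in 5xFAD circRNA (limma, adjusted p = 0.0457), 0.78 ± 0.21 in 5xFAD PKR knockout (adjusted p = 0.0124) and 0.39 ± 0.25 in 5xFAD EGFP (adjusted p = 0.358). For each of the 3 chains the order of the group means was wild type EGFP, 5xFAD EGFP, 5xFAD circRNA and 5xFAD PKR knockout. No neighbours in that order passed the limma test for any chain.

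Wild type EGFP replicate 3, the library with fewer microglia marker transcripts, was the lowest for all 3 chains. Without it, C1qa in 5xFAD circRNA still passed the limma test (adjusted p = 0.0284), while C1qb (0.46, adjusted p = 0.107) and C1qc (0.35, adjusted p = 0.150) did not. In 5xFAD PKR knockout all 3 still passed without it, with changes of 0.69, 0.74 and 0.51 (limma, adjusted p = 0.00993, 0.0121 and 0.0328). The changes of C1qa, C1qb and C1qc in 5xFAD EGFP shrank without it to 0.33, 0.20 and 0.12, and again none passed. The circRNA change of C1qb also missed the limma threshold without circRNA replicate 2 (adjusted p = 0.0827) or replicate 3 (adjusted p = 0.0807). That of C1qc missed it without replicate 1, 2 or 3 (limma, adjusted p = 0.0641, 0.109 and 0.112). With all libraries scaled to the same sum, these changes were 0.39 and 0.33 (limma, adjusted p = 0.101 and 0.151).

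**Figure D2:**
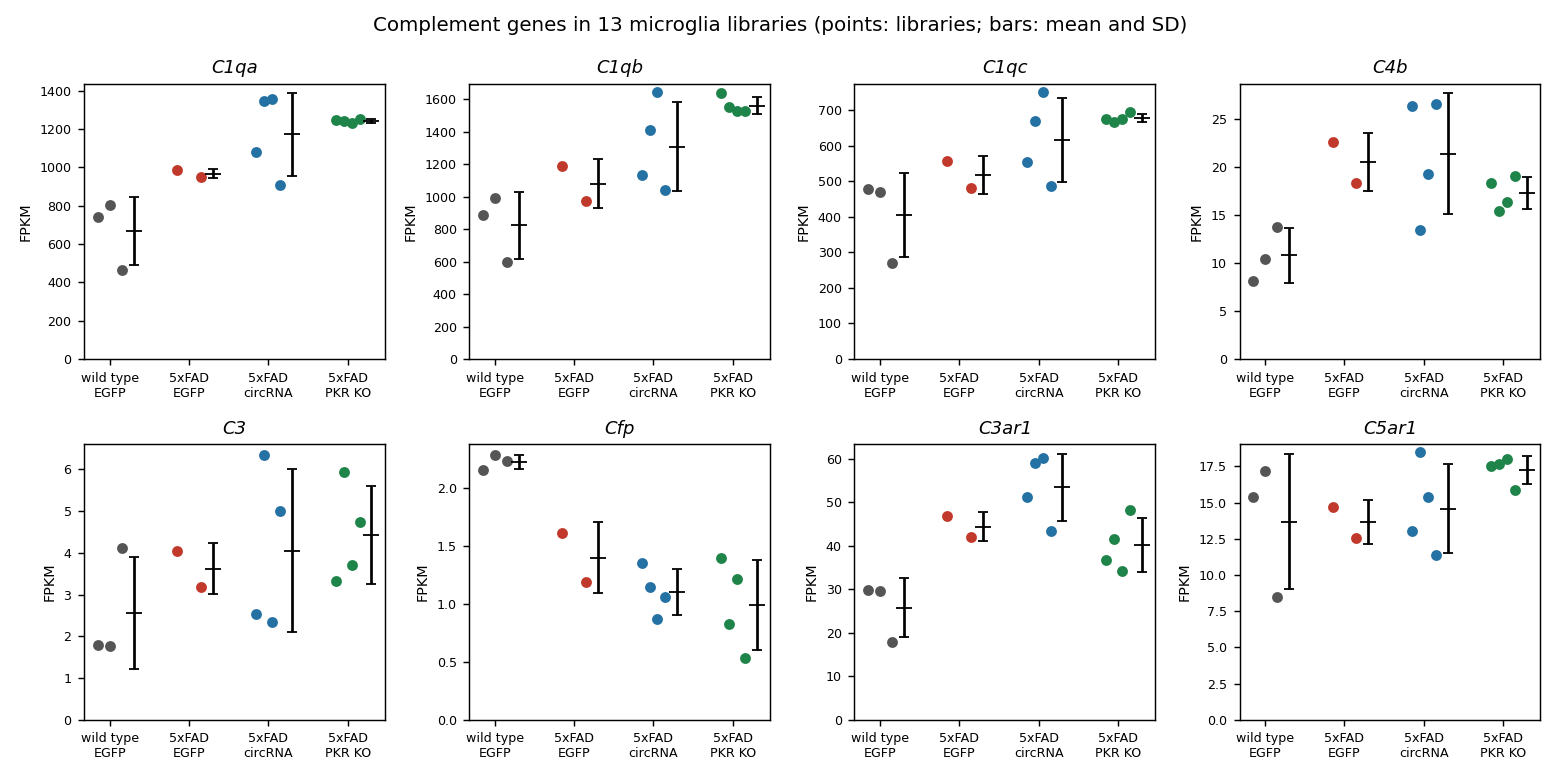
FPKM of the 8 complement genes (y axes, each starting at 0) in the 4 groups (x axes), with 1 point for each library and bars for the mean and SD. C1q chains in the PKR knockout libraries lie close together and above all wild type libraries, and Cfp is the gene with all wild type libraries on top.

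The 3 chains together made up 1.05% to 1.83% of the FPKM sum of a library in wild type EGFP and 1.73% to 1.80% in 5xFAD EGFP. They made up 1.64% to 2.22% in 5xFAD circRNA and 2.26% to 2.33% in 5xFAD PKR knockout. So the highest wild type library had a larger share than both 5xFAD EGFP libraries. A ratio to 10 other microglia genes in the same library does not depend on how libraries are scaled, and it was chosen after the values had been seen. The C1q sum was 0.475, 0.503 and 0.471 of the summed FPKM of these 10 genes in wild type EGFP and 0.731 and 0.698 in 5xFAD EGFP. It was 0.735, 0.762, 0.779 and 0.753 in 5xFAD circRNA and 0.997, 0.898, 0.890 and 0.951 in 5xFAD PKR knockout. The 4 groups did not overlap on this ratio, and wild type EGFP replicate 3 fell in with the other wild type libraries. Each of the 6 comparisons on it had the smallest exact permutation p its group sizes allow (two-sided, p = 0.0286 to 0.1). After adjustment over the 6 none passed (adjusted p = 0.0571 to 0.1), and none could have. Taken against each marker alone, the C1q sum was higher in all 5xFAD libraries than in wild type for 10 of 10 markers, and higher in the PKR knockout than in the other 5xFAD libraries for 7 of 10. The 10 markers themselves had median log2 changes against wild type EGFP of -0.26 in 5xFAD EGFP, -0.08 in 5xFAD circRNA and -0.28 in 5xFAD PKR knockout. Of the 10, limma called 1, 1 and 2 lower and none higher, and 2, 1 and 4 had an unadjusted p under 0.05. Their part in the ratio was not tested.

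**Figure D3:**
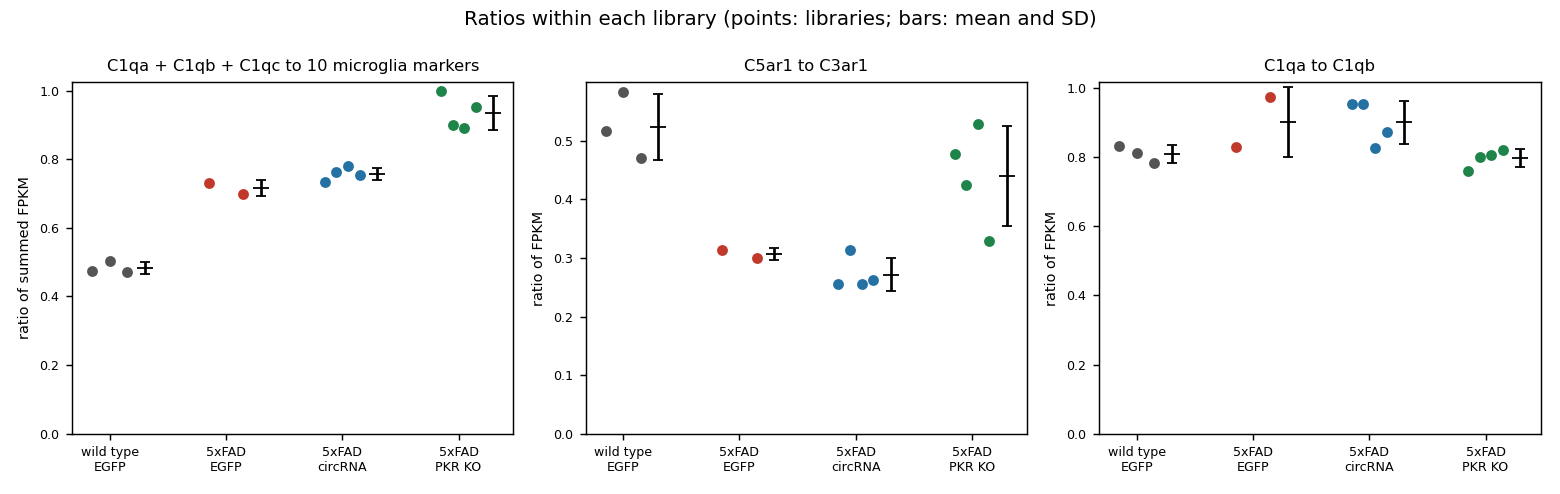
Ratios of FPKM within each library (y axes, starting at 0) in the 4 groups (x axes): the C1q sum to 10 microglia markers, C5ar1 to C3ar1, and C1qa to C1qb, with bars for the mean and SD. The C1q ratio runs from 0.471 to 0.503 in wild type and from 0.890 to 0.997 in the PKR knockout, and the C5ar1 to C3ar1 ratio is lowest in 5xFAD circRNA.

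The proportions of the chains varied by library from 0.760 to 0.973 for C1qa to C1qb and from 0.411 to 0.539 for C1qc to C1qb. C1qa was 0.808 ± 0.026 of C1qb in wild type EGFP (SD, n = 3), 0.902 ± 0.101 in 5xFAD EGFP (n = 2), 0.90 ± 0.062 in 5xFAD circRNA (n = 4) and 0.796 ± 0.026 in 5xFAD PKR knockout (n = 4). C1qc was 0.489 ± 0.044, 0.480 ± 0.016, 0.471 ± 0.013 and 0.434 ± 0.019 of C1qb in the same order of groups. Both proportions were higher in 5xFAD circRNA than in 5xFAD PKR knockout with no overlap, each with an exact permutation p = 0.0286 (two-sided, adjusted p = 0.171 over 36 ratio tests). None of the 36 tests passed after adjustment, and 6 had an exact p under 0.05. At these group sizes none could have passed, even with full separation, so the adjusted values cannot decide whether a ratio differs. The smallest exact p the group sizes allow is 0.1 for 5xFAD EGFP against wild type, 0.0667 against 5xFAD EGFP for the other 5xFAD groups, and 0.0286 for the remaining comparisons.

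C4b encodes complement C4, which is cleaved after C1q has bound, and glia other than microglia also make it. It rose against wild type EGFP in all 3 groups of 5xFAD mice. It stood at 8.14, 10.4 and 13.8 FPKM in wild type EGFP (10.8 ± 2.84, SD, n = 3) and at 22.6 and 18.4 FPKM in 5xFAD EGFP (20.5 ± 3.02, n = 2). It stood at 26.4, 13.5, 19.2 and 26.5 FPKM in 5xFAD circRNA (21.4 ± 6.29, n = 4) and at 18.3, 15.4, 16.4 and 19.0 FPKM in 5xFAD PKR knockout (17.3 ± 1.70, n = 4). One circRNA library fell just under the highest wild type library, and the other 5xFAD libraries were all above wild type. C4b changed against wild type EGFP by 0.89 ± 0.26 (SE) in 5xFAD EGFP (limma, adjusted p = 0.0379), 0.91 ± 0.22 in 5xFAD circRNA (adjusted p = 0.00870) and 0.66 ± 0.22 in 5xFAD PKR knockout (adjusted p = 0.0314). C4b has a near-identical copy, C4a, which the table does not list, so how fragments were divided between the copies is uncertain.

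The C4b call in 5xFAD EGFP was lost in limma fits without wild type EGFP replicate 1 (adjusted p = 0.125) or 2 (adjusted p = 0.0725) and without 5xFAD EGFP replicate 1 (adjusted p = 0.232) or 2 (adjusted p = 0.118). The C4b call in 5xFAD PKR knockout was lost without wild type replicate 1 or 2 (limma, adjusted p = 0.135 and 0.0665) and without knockout replicate 1, 3 or 4 (limma, adjusted p = 0.0672, 0.0503 and 0.0734). Scaling to the same sum ended both calls, at 0.73 and 0.44 (limma, adjusted p = 0.0563 and 0.109). Without wild type EGFP replicate 3 the 3 changes were 1.07, 1.08 and 0.84 (limma, adjusted p = 0.0150, 0.00396 and 0.0134).

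Oligodendrocyte markers moved with C4b among the circRNA libraries. The 8 markers summed to 790.1 and 823 FPKM in replicates 1 and 4, where C4b was 26.4 and 26.5 FPKM, and to 316 and 327 FPKM in replicates 2 and 3, where it was 13.5 and 19.2. In wild type EGFP replicate 3, with 1623 FPKM of these markers, C4b was 13.8 FPKM. In the PKR knockout libraries the markers summed to 232 to 391 FPKM, beside 405 and 365 FPKM in wild type replicates 1 and 2, and C4b was 15.4 to 19.0 FPKM beside 8.14 and 10.4. In 5xFAD EGFP the markers summed to 678 and 720.4 FPKM. Limma called none of the 8 against wild type in any of the 3 groups, where 0, 0 and 2 had an unadjusted p under 0.05. Summed astrocyte markers (8 genes) ranged from 101 to 343 FPKM in wild type EGFP, from 155 to 224 in 5xFAD EGFP, from 138 to 262 in 5xFAD circRNA and from 148 to 238 in 5xFAD PKR knockout. Within that list Gfap, the intermediate filament gene that reactive astrocytes raise, rose against wild type in all 3 groups, as C4b did. Gfap stood at 11.6 to 29.9 FPKM in wild type EGFP, 50.3 to 74.6 in 5xFAD EGFP, 49.6 to 89.5 in 5xFAD circRNA and 66.5 to 116 in 5xFAD PKR knockout. Its changes against wild type were 1.72, 1.84 and 2.25 (limma, adjusted p = 0.00868, 0.000896 and 0.000159). The largest was in 5xFAD PKR knockout, where the C4b change was smallest. The Gfap call in 5xFAD EGFP was lost with the 2 groups fitted alone (limma, adjusted p = 0.0735). Without 5xFAD EGFP replicate 1, which left 1 library in that group, the Gfap change there was 1.44. Of the other 7 astrocyte markers, limma called none in 5xFAD EGFP or 5xFAD circRNA and 3 lower in 5xFAD PKR knockout. Over all 8, Gfap included, an unadjusted p under 0.05 was found for 2, 1 and 5. The median log2 change of the 8 was -0.40, -0.26 and -0.57, and 1, 2 and 1 of them had a positive change. None of the 16 markers of either type was at 0 in a whole group. Their part in the C4b changes was not tested.

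**Figure D4:**
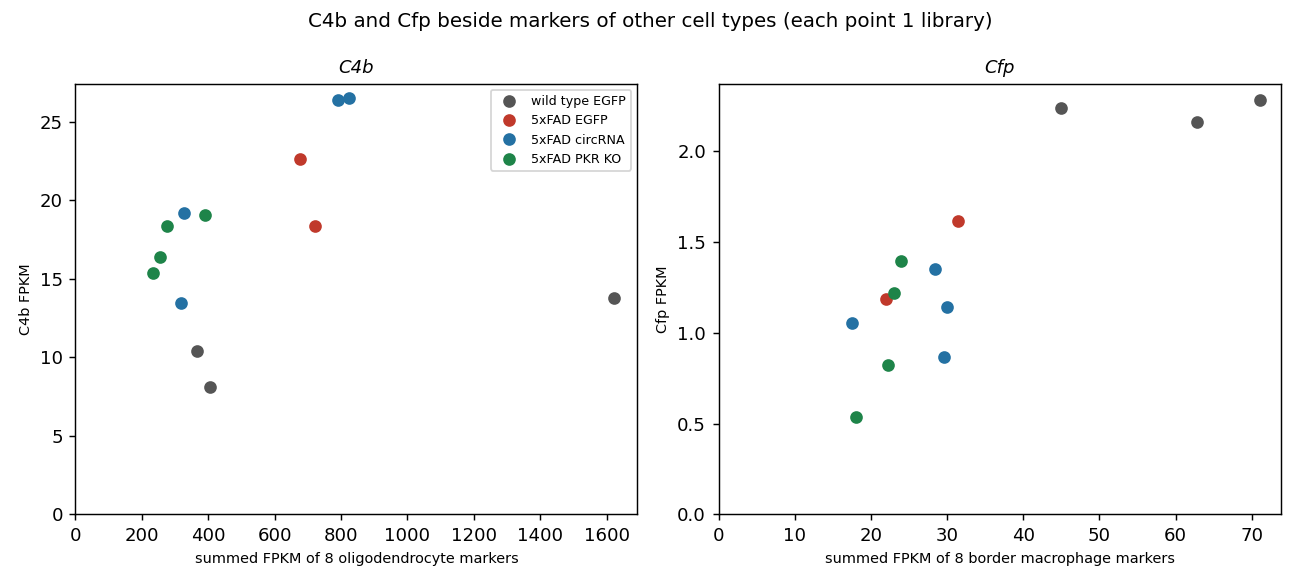
C4b FPKM against the summed FPKM of 8 oligodendrocyte markers (left) and Cfp FPKM against the summed FPKM of 8 border macrophage markers (right), with 1 point for each of the 13 libraries and colours for the 4 groups. The pair of circRNA libraries with the most C4b (26.4 and 26.5 FPKM) also have the most oligodendrocyte signal of that group, and the 3 wild type libraries have the highest values on both axes of the Cfp plot.

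C3 encodes the protein on which all complement pathways meet. It was low in these microglia, at rank 6282 by mean FPKM, and passed the test in no comparison. It stood at 1.79, 1.77 and 4.12 FPKM in wild type EGFP (2.56 ± 1.35, SD, n = 3) and at 4.05 and 3.18 FPKM in 5xFAD EGFP (3.62 ± 0.612, n = 2). It stood at 2.53, 6.34, 2.33 and 5.00 FPKM in 5xFAD circRNA (4.05 ± 1.95, n = 4) and at 3.34, 5.93, 3.71 and 4.74 FPKM in 5xFAD PKR knockout (4.43 ± 1.16, n = 4). All groups overlapped, with wild type EGFP replicate 3 above 6 of the 10 libraries of 5xFAD mice. Between 434 and 2136 fragments stood behind each value, a counting error of 2.16% to 4.80%, so the spread within groups was wider than counting error. For C3, limma gave a change against wild type EGFP of 0.43 (95% interval -0.33 to 1.20) in 5xFAD EGFP, 0.49 (-0.16 to 1.13) in 5xFAD circRNA and 0.65 (0.01 to 1.29, adjusted p = 0.104) in 5xFAD PKR knockout. Without wild type EGFP replicate 3 the changes were 0.73, 0.78 and 0.94, and only the last passed the limma test (adjusted p = 0.0256).

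Cfp encodes properdin, the stabiliser of the alternative pathway's enzyme, which neutrophils and monocytes are known to release. It was the member that fell. It stood at 2.16, 2.28 and 2.24 FPKM in wild type EGFP (2.23 ± 0.063, SD, n = 3) and at 1.62 and 1.19 FPKM in 5xFAD EGFP (1.40 ± 0.304, n = 2). It stood at 1.35, 1.14, 0.867 and 1.06 FPKM in 5xFAD circRNA (1.10 ± 0.201, n = 4) and at 1.40, 0.823, 1.22 and 0.535 FPKM in 5xFAD PKR knockout (0.993 ± 0.388, n = 4). All 3 wild type libraries were above all 10 others. Its mean was 0.629 of the wild type mean in 5xFAD EGFP, 0.496 in 5xFAD circRNA and 0.446 in 5xFAD PKR knockout. The limma change against wild type EGFP, which is compressed at this level by the added 1 FPKM, was -0.62 ± 0.14 (SE) in 5xFAD circRNA (adjusted p = 0.00584) and -0.72 ± 0.14 in 5xFAD PKR knockout (adjusted p = 0.00181). It was -0.43 ± 0.17 in 5xFAD EGFP (limma, adjusted p = 0.111). With 57 to 196 fragments behind each value, counting error alone was 7.14% to 13.2%. The ratio of Cfp FPKM to the C1q FPKM sum was 0.00101 to 0.00168 in wild type EGFP, 0.000493 to 0.000592 in 5xFAD EGFP, 0.000231 to 0.000488 in 5xFAD circRNA and 0.000154 to 0.000393 in 5xFAD PKR knockout. Against wild type this ratio differed, in the same order of 5xFAD groups, by -1.16, -1.75 and -2.17 on the log2 scale with no overlap. The two-sided exact permutation p was 0.1, 0.0286 and 0.0286, each the smallest possible. None passed after adjustment (adjusted p = 0.277, 0.171 and 0.171), and at these group sizes none could. The ratio of C4b to the C1q sum differed from wild type by 0.48, 0.25 and -0.20 on the log2 scale, all with overlap. That of C3 differed by 0.14, -0.07 and -0.04, also with overlap. Without wild type EGFP replicate 3 the differences were 0.92, 0.68 and 0.23 for C4b and 0.78, 0.57 and 0.60 for C3. So that library set the sign for C4b in 5xFAD PKR knockout and for C3 in 5xFAD circRNA and 5xFAD PKR knockout. Between 5xFAD PKR knockout and 5xFAD EGFP the C4b ratio differed by -0.69 without overlap (exact permutation p = 0.0667, adjusted p = 0.24).

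Markers of border macrophages, which line the vessels and meninges, were also highest in wild type. The 8 markers summed to 45.0 to 71.1 FPKM in wild type EGFP, 22.0 to 31.5 in 5xFAD EGFP, 17.5 to 30.1 in 5xFAD circRNA and 18.1 to 24.0 in 5xFAD PKR knockout. Of 7 tested, limma called 6 lower than in wild type in each of the 3 comparisons, and none of the 8 was at 0 in a whole group. Of 6 monocyte markers only Fn1 was high enough to be tested. The mean of Fn1, which other cells also express, was 13.5 FPKM in wild type EGFP, 4.93 in 5xFAD EGFP, 7.33 in 5xFAD circRNA and 7.79 in 5xFAD PKR knockout, and limma called it lower in each comparison with wild type (adjusted p = 0.0122, 0.0364 and 0.0489). The other 5 had group means of 0.0698 to 0.728 FPKM. Neutrophil markers (6 genes) summed to 5.58 to 7.37, 4.40 to 9.58, 1.66 to 9.41 and 1.25 to 24.6 FPKM in the same order of groups, with Ly6g at 0 in both 5xFAD EGFP libraries. The library with the most neutrophil signal, PKR knockout replicate 4, had the lowest Cfp (0.535 FPKM). Endothelial markers (8 genes) summed to 78.6 to 181 FPKM in wild type EGFP and to 34.3 to 97.5 FPKM in the 5xFAD libraries, and mural markers (8 genes) to 39.9 to 86.5 against 16.6 to 34.8 FPKM. Limma called 7, 4 and 7 of the 8 endothelial markers and 4 of 5 tested mural markers lower than in wild type in 5xFAD EGFP, 5xFAD circRNA and 5xFAD PKR knockout, and 0, 1 and 1 mural markers higher. They had median log2 changes of -1.48, -0.96 and -1.15 for endothelial and -1.41, -1.02 and -1.33 for mural markers. The part of these cells in the Cfp change was not tested.

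C3ar1 encodes the receptor for the C3a fragment. It rose in all 3 groups of 5xFAD mice against wild type EGFP. It stood at 29.9, 29.5 and 17.9 FPKM in wild type EGFP (25.8 ± 6.79, SD, n = 3) and at 46.8 and 42.0 FPKM in 5xFAD EGFP (44.4 ± 3.42, n = 2). It stood at 51.2, 58.9, 60.1 and 43.4 FPKM in 5xFAD circRNA (53.4 ± 7.73, n = 4) and at 36.8, 41.6, 34.2 and 48.3 FPKM in 5xFAD PKR knockout (40.2 ± 6.20, n = 4). All 5xFAD libraries were above all wild type libraries. Against wild type EGFP, C3ar1 changed by 0.80 ± 0.22 (SE) in 5xFAD EGFP (limma, adjusted p = 0.0282), 1.05 ± 0.18 in 5xFAD circRNA (adjusted p = 0.00114) and 0.65 ± 0.18 in 5xFAD PKR knockout (adjusted p = 0.0154). The mean was thus highest in 5xFAD circRNA, 1.33 times that of 5xFAD PKR knockout, a limma difference of 0.40 (95% interval 0.04 to 0.77) that did not pass (adjusted p = 0.157). The other neighbours in the order of group means, 5xFAD circRNA with 5xFAD EGFP and 5xFAD EGFP with 5xFAD PKR knockout, differed by 0.25 (-0.19 to 0.70) and by 0.15 in size (PKR knockout minus EGFP, -0.60 to 0.30).

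The C3ar1 call in 5xFAD EGFP was lost in limma fits without 5xFAD EGFP replicate 1 (adjusted p = 0.173) or 2 (adjusted p = 0.120), each of which left 1 library in the group. Without wild type EGFP replicate 3 all 3 calls stood, at 0.56, 0.81 and 0.41 (limma, adjusted p = 0.0410, 0.00190 and 0.0496). Over the 13 libraries, the tested genes whose centred log2 profile lay nearest to that of C3ar1 were Pmp22 (root mean square distance 0.10), Ggh (0.12) and Slamf9 (0.14), and 233 genes lay within 0.25.

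C5ar1 encodes the receptor for the C5a fragment and, unlike C3ar1, passed the test in no comparison. It stood at 15.4, 17.2 and 8.45 FPKM in wild type EGFP (13.7 ± 4.63, SD, n = 3) and at 14.7 and 12.6 FPKM in 5xFAD EGFP (13.6 ± 1.52, n = 2). It stood at 13.1, 18.5, 15.4 and 11.4 FPKM in 5xFAD circRNA (14.6 ± 3.09, n = 4) and at 17.6, 17.7, 18.0 and 15.9 FPKM in 5xFAD PKR knockout (17.3 ± 0.969, n = 4). Every 5xFAD group overlapped wild type. Its limma change against wild type EGFP was 0.05 (95% interval -0.48 to 0.57) in 5xFAD EGFP, 0.12 (-0.32 to 0.56) in 5xFAD circRNA and 0.37 (-0.07 to 0.81) in 5xFAD PKR knockout. Without wild type EGFP replicate 3, where C5ar1 was lowest, the changes in 5xFAD EGFP and 5xFAD circRNA turned negative, at -0.24 and -0.17, as they did with libraries scaled to the same sum, at -0.11 and -0.15.

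C5ar1 was 0.523 ± 0.056 of C3ar1 in wild type EGFP (SD, n = 3), 0.307 ± 0.011 in 5xFAD EGFP (n = 2), 0.272 ± 0.028 in 5xFAD circRNA (n = 4) and 0.440 ± 0.085 in 5xFAD PKR knockout (n = 4). The circRNA libraries, at 0.255, 0.314, 0.256 and 0.262, were all below the wild type libraries at 0.516, 0.583 and 0.471 and below the PKR knockout libraries at 0.477, 0.425, 0.528 and 0.329. The log2 differences were -0.94 and -0.68, each with an exact permutation p = 0.0286 (two-sided, the smallest possible, adjusted p = 0.171). Between 5xFAD EGFP and wild type EGFP the log2 difference was -0.76 with no overlap (exact permutation p = 0.1, two-sided, the smallest possible).

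Among the 5xFAD groups limma called none of the 8 genes. In 5xFAD circRNA against 5xFAD EGFP no gene of the table was called (0%), and 0 of the 8 had an unadjusted p under 0.05, beside 523 genes of all. None of the 8 separated these groups without overlap, beside 19.3% of all genes (16.6% above and 2.65% below). The changes of the 8 ran from -0.19 for Cfp to 0.26 for C1qb, with a median of 0.15 beside 0.08 for all genes. The 95% interval was -0.25 to 0.77 for C1qa, -0.52 to 0.55 for C4b, -0.67 to 0.78 for C3 and -0.19 to 0.70 for C3ar1. Changes within these bounds cannot be told from none here. Markers of other cells also had different values: all 8 endothelial markers had positive changes (median 0.57, 4 without overlap). All 8 oligodendrocyte markers and all 4 tested neuron markers had negative ones (medians -0.62 and -0.65). Limma called none of these, and 1, 0 and 0 had an unadjusted p under 0.05. Their part in the values of the 8 genes was not tested.

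In 5xFAD PKR knockout against 5xFAD EGFP, limma called 0.0832% of all genes (9, all higher) and none of the 8. C1qb was the 1 member with an unadjusted p under 0.05, at 0.54 (95% interval 0.02 to 1.05, limma, adjusted p = 0.373). How many of all genes had one in this fit is not given here, so that count is not read as a result. The C1qa change was 0.36 (-0.15 to 0.87) and that of C1qc 0.39 (-0.13 to 0.91). For these 3 chains and C5ar1 (0.32, -0.18 to 0.82) every knockout library was above both EGFP libraries. That was so for 17.7% of all genes tested, and 17.0% were below (34.8% in all). Markers of other cells also had different values in this comparison: all 8 oligodendrocyte markers and all 4 tested neuron markers were lower in every knockout library than in both EGFP libraries, with median log2 changes of -1.46 and -0.66. Limma called none of them, and 6 and 2 had an unadjusted p under 0.05. The 8 endothelial markers had a median change of 0.39 and the 8 astrocyte markers one of -0.45, with none called and 1 and 0 at an unadjusted p under 0.05. Their part in the C1q and C5ar1 values was not tested. C4b (-0.23), C3ar1 (-0.15) and Cfp (-0.28) had lower means in the knockout, with overlap.

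In 5xFAD circRNA against 5xFAD PKR knockout, limma called 6.19% of all genes (4.28% higher and 1.91% lower) and again none of the 8. C3ar1 was the 1 member with an unadjusted p under 0.05, which at least the called 6.19% of all genes had too. The changes ran from -0.28 for C1qb (95% interval -0.70 to 0.15) to 0.40 for C3ar1, with a median of -0.13 beside 0.08 for all genes. None of the 8 separated these groups without overlap, beside 19.5% of all genes (15.1% above and 4.44% below). All 8 oligodendrocyte markers had higher means in 5xFAD circRNA, with a median change of 0.87, and the 8 astrocyte markers had a median change of 0.47, all with overlap. Limma called none of these 16, and 4 and 3 had an unadjusted p under 0.05. Their part in the values of the 8 genes was not tested.

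Of 49 other genes of the complement pathway, 47 were listed (C4a and Colec10 were not) and 12 reached a mean of 1 FPKM and were tested. The other 35 were below it, and 3 of these (Mbl1, Cfd and C4bp) were listed at 0 in all libraries. None of the 7 genes of the terminal pathway and neither gene of the alternative pathway's activation was tested. Of the 12 listed genes of classical and lectin activation, 1 was tested, Masp1. It encodes a protease of the lectin pathway.

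Against wild type EGFP, 2 of the 12 rose and 3 fell in 5xFAD EGFP, 3 rose and 3 fell in 5xFAD circRNA, and 3 rose and 6 fell in 5xFAD PKR knockout. Of all genes tested, 14.0%, 25.8% and 37.0% were called in these comparisons. None was called in the 3 other comparisons, in which 0, 2 and 4 had an unadjusted p under 0.05 in limma. These unadjusted counts are not read as a result, since that share of all genes is not given for each comparison. The median change of the 12 was -0.20, -0.10 and -0.48 in the comparisons with wild type, beside -0.03, 0.02 and -0.05 for all genes. The added 1 FPKM compresses the changes of Masp1, Cd93 and Cd59a as it does that of Cfp, so ratios of their mean FPKM are given too. Itgax, a chain of complement receptor 4 and a gene known to mark microglia near plaques, stood at 1.81 to 2.77 FPKM in wild type EGFP and at 72.5 to 120.5 FPKM in the 5xFAD libraries. Its changes were 4.63, 4.77 and 5.06 (limma, adjusted p = 5.12e-09, 4.10e-10 and 1.99e-10). Masp1 stood at 0.710 to 0.852 FPKM in wild type EGFP and at 2.12 to 4.06 FPKM in the 5xFAD libraries, with changes of 1.09, 1.36 and 1.07 (limma, adjusted p = 0.000274, 4.86e-06 and 2.39e-05) and ratios of means of 3.57, 4.56 and 3.52. No library of 5xFAD mice came near the wild type level of either gene.

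Itgb2, the beta chain that complement receptors 3 and 4 share, rose by 0.72 in 5xFAD PKR knockout and by 0.59 in 5xFAD circRNA (limma, adjusted p = 0.00588 and 0.0220). Without wild type EGFP replicate 3, the lowest of its group, the Itgb2 changes were 0.50 and 0.37, and the second missed the limma threshold (adjusted p = 0.0133 and 0.0643). That change also missed it without circRNA replicate 2 (adjusted p = 0.0605) or 3 (0.0577) and with libraries scaled to the same sum (0.31, 0.111). Cd93, a surface protein once taken for a C1q receptor, fell by 0.98, 0.75 and 0.91 in the 3 groups (limma, adjusted p = 0.00559, 0.00485 and 0.00109), with means 0.382, 0.487 and 0.414 of wild type. It fell by 0.79, 0.56 and 0.72 and passed in each without wild type EGFP replicate 3, while the 5xFAD EGFP call was lost without replicate 2 of that group (limma, adjusted p = 0.0782). Cd59a, which blocks the membrane attack complex, fell by 0.97, 0.62 and 0.93 (limma, adjusted p = 0.0191, 0.0411 and 0.00417), with means 0.336, 0.551 and 0.366 of wild type. The Cd59a call in 5xFAD circRNA was lost under 8 of 13 alternatives, among them leaving out wild type replicate 1 or 3 or circRNA replicate 1, 2 or 3 (limma, largest adjusted p = 0.130). That in 5xFAD EGFP was lost without wild type replicate 1 or either replicate of its own group (largest adjusted p = 0.143), and that in 5xFAD PKR knockout held under all 13. Vtn, another inhibitor of that complex, fell by 1.5 in 5xFAD EGFP and by 1.12 in 5xFAD PKR knockout (limma, adjusted p = 0.0175 and 0.0142). Without wild type EGFP replicate 3, the highest of its group, Vtn differed by -1.23 and -0.85, and the second missed the threshold (limma, adjusted p = 0.0358 and 0.0550). The first missed it without wild type replicate 1 (adjusted p = 0.0543) or 5xFAD EGFP replicate 1 (0.0584) or 2 (0.170). C5ar2, the second C5a receptor and the neighbour of C5ar1, fell by 0.54 in 5xFAD circRNA and by 0.52 in 5xFAD PKR knockout (limma, adjusted p = 0.0318 and 0.0297). Each of these C5ar2 calls was lost under 7 of 13 alternatives, among them leaving out wild type replicate 1 or 2, circRNA replicate 1 or 4, and knockout replicate 2 or 4 (limma, largest adjusted p = 0.129 and 0.116). When wild type EGFP replicate 3, where C5ar2 was lowest, was left out, it fell in all 3 groups, by 0.80, 0.73 and 0.71 (limma, adjusted p = 0.00981, 0.00435 and 0.00426). Endothelial and mural markers were lower in these groups too, with the sums and calls given above for Cfp, and their part in the lower values of Cd93, Cd59a and Vtn was not tested.

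**Figure D5:**
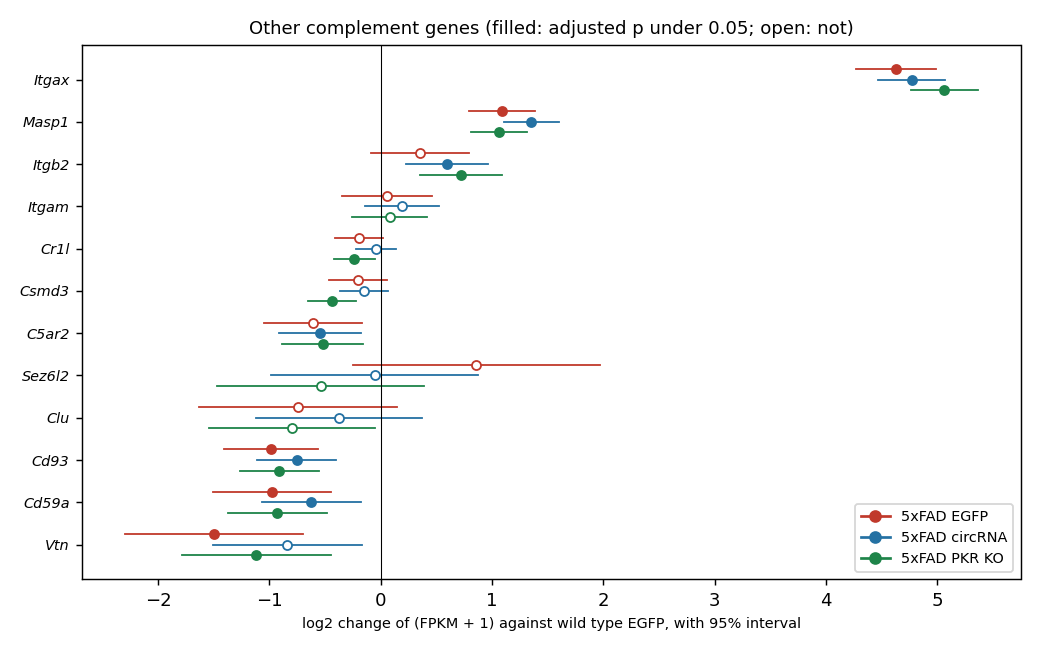
Log2 changes of (FPKM + 1) against wild type EGFP with 95% intervals (x axis) for the 12 tested genes of the wider complement list (y axis), with a colour for each of the 3 groups of 5xFAD mice, filled points for an adjusted p under 0.05 in limma and open points for the rest. Itgax lies at 4.63 to 5.06 and Masp1 at 1.07 to 1.36, and Cd93 and Cd59a are filled below 0 in all 3 groups.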

How the data were processed

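RNA of microglia was sequenced in 13 libraries, grouped by the titles in the labels. Per the labels' protocols, total RNA was depleted of ribosomal RNA and made into stranded libraries sequenced on a NovaSeq instrument. Per the submitters' processing notes, build mm10 was used with HISAT2 2.1.0, Bowtie2 2.3.5 and featureCounts 1.5.1, and how each was set is not given in the sources used here. The authors deposited 1 table of FPKM values, with 1 column for each library. FPKM depends on the library's total, so abundant genes that change can move others.

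Depth was recovered from the steps of values below 0.3 FPKM and exon lengths in GENCODE M21 (a length for 98.3% of genes): 91.6% of 33967 values came out whole within 0.02 of a fragment. Replicates differed by more than sampling noise (chi-square for each degree of freedom of 13.2 or more in every pair), so none was counted as a duplicate.

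From these values, log2(FPKM + 1) was fitted in limma 3.58.1 under R 4.3.3, all libraries in 1 fit with 1 mean for each group, 9 residual degrees of freedom and an intensity trend. The Benjamini-Hochberg adjustment ran over 10817 genes within each of 6 comparisons, with a threshold of 0.05. The scripts were tested on simulated data. Ratios within a library had exact permutation tests, with the smallest p limited by group size. Alternatives changed the scaling, the pseudocount (0.1), the filter, the libraries fitted and the replicate block.

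Named were all 8 members, up to 3 genes of the wider complement list for each direction and comparison, the 3 genes nearest in profile to a member whose group means of log2(FPKM + 1) span 1 unit or more (C3ar1 only; on ratios of mean FPKM, Cfp would also qualify), and Eif2ak2. The members, lists and rules were chosen with earlier results of these data known. Summed neuron markers ranged from 5.45 to 25.2 FPKM over the libraries. Of the marker lists not used above, fibroblast markers summed to at most 3.64 FPKM and lymphocyte markers to at most 0.229 FPKM. One gene of the wider complement list is not reported here, and counts over that list leave it out.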

Additional observations from a re-analysis of the deposited data

Results flagged for a closer look

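In 28 groups of 4 libraries (the 8 genes and 6 ratios in 5xFAD circRNA and in 5xFAD PKR knockout), 1 held a library far from the others, where chance gives about 1 in 20. The log2 ratio of C5ar1 to C3ar1 was -1.67 in 5xFAD circRNA replicate 2, and -1.97 to -1.93 in the other 3 libraries of that group.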

How the results depend on the processing

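Each alternative changed 1 choice: libraries scaled to the same FPKM sum, scaled by median ratios, a pseudocount of 0.1, no filter on low values, the replicate number as a block, the 2 groups fitted alone, or 1 library left out. C3ar1, C4b and Cfp in 5xFAD circRNA and C3ar1, Cfp and C1qc in 5xFAD PKR knockout, all against wild type EGFP, stayed past the threshold under all 13 alternatives. Other calls did not, and the cause was not tested. Against wild type EGFP in limma, the C1q calls of 5xFAD circRNA were lost with no filter (adjusted p = 0.148 for C1qa, 0.311 for C1qb and 0.134 for C1qc) and with the groups alone (0.0768, 0.136 and 0.164). With no filter, C1qa (adjusted p = 0.0794) and C1qb (0.112) were also lost in 5xFAD PKR knockout, and C4b (0.0617) in 5xFAD EGFP. In 5xFAD EGFP fitted with wild type alone, C4b (adjusted p = 0.0905) and C3ar1 (0.149) were lost. Scaled to the same sum, Cfp passed in 5xFAD EGFP (adjusted p = 0.0243). Applied after the data had been seen to the 12 other complement genes tested, the same alternatives ended no call of Itgax or Masp1. Fitted alone with wild type, the count that fell was 1 in 5xFAD EGFP, 4 in 5xFAD PKR knockout and 1 in 5xFAD circRNA, and with libraries scaled to the same sum it was 6, 7 and 6. With 1 library left out it was 0 to 4, 4 to 6 and 1 to 3.

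The number of members past the threshold in 5xFAD EGFP against wild type was 2, and it was 1 with no filter, 0 with the groups alone and 0 to 2 with 1 library left out. In 5xFAD circRNA it was 6, and it was 3 with no filter, 3 with the groups alone and 4 to 6 with 1 library left out. For 5xFAD PKR knockout it was 6, and it was 4 with no filter and 5 to 7 with 1 library left out. The number of all genes called in 5xFAD EGFP against wild type was 1514 (827 higher, 687 lower), and it was 3733 (708 and 3025) scaled to the same sum, 393 alone, and 566 to 1979 with 1 library left out. It was 2796 in 5xFAD circRNA against wild type (1925 and 871), 5714 (995 and 4719) scaled to the same sum, 1720 alone, and 2172 to 2857 with 1 left out. Against wild type it was 3997 (1898 and 2099) in 5xFAD PKR knockout, 6639 (1173 and 5466) scaled to the same sum, 4198 (2757 and 1441) by median ratios, and 3122 to 3842 with 1 left out. Between 5xFAD PKR knockout and 5xFAD EGFP it was 9, and it was 46 by median ratios, 541 alone, 0 to 2 with 1 left out, and 0 with the same sum, with the pseudocount of 0.1 or with no filter (1738, 1440 and 1882 at an unadjusted p under 0.05). Between 5xFAD circRNA and 5xFAD PKR knockout it was 670 (463 and 207), 844 (147 and 697) by median ratios, 684 (340 and 344) with the same sum, and 146 to 508 with 1 left out. Where a group of 2 lost a library, the lone library was assumed to vary like the others.

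The replicate numbers were not taken to pair the libraries, since in no comparison with 3 or more pairs did every pair of same-numbered libraries correlate above 0.1 in their deviations from the group means. The correlations ran from -0.42 to 0.69 in 5xFAD circRNA and -0.18 to 0.58 in 5xFAD PKR knockout against wild type, and from 0.036 to 0.55 between 5xFAD circRNA and 5xFAD PKR knockout. With 2 pairs each they ran from -0.032 to 0.27 in 5xFAD EGFP against wild type, -0.024 to 0.17 in 5xFAD circRNA against 5xFAD EGFP, and 0.27 to 0.38 in 5xFAD PKR knockout against 5xFAD EGFP. With the replicate block, 1 member was called in 5xFAD EGFP (C3ar1 was lost, limma, adjusted p = 0.0750), 4 in 5xFAD circRNA (C1qb, 0.0501, and C1qc, 0.0652, were lost) and 6 in 5xFAD PKR knockout, and 22 genes were called in 5xFAD PKR knockout against 5xFAD EGFP. The block gave 448 genes in 5xFAD circRNA against 5xFAD PKR knockout.

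Signs that turned belonged to changes that passed no test under any of these settings. For C5ar1 in 5xFAD EGFP against wild type the change was -0.11 with the same sum, -0.047 with the block and -0.24 to 0.23 with 1 library left out. Its change was, in 5xFAD circRNA against wild type, -0.15 with the same sum and -0.17 to 0.30 with 1 left out. In 5xFAD circRNA against 5xFAD EGFP, C3, C4b and C5ar1 were -0.031, -0.093 and -0.036 with the same sum and -0.010, -0.066 and -0.00897 by median ratios. With the block C3 was -0.024 and C4b -0.12. With 1 library left out they ranged from -0.15 to 0.23, -0.13 to 0.21 and -0.042 to 0.18. In 5xFAD circRNA against 5xFAD PKR knockout with 1 left out, C1qa ranged from -0.18 to 0.014, C3 from -0.37 to 0.010 and Cfp from -0.024 to 0.19. The C3 to C1q log2 ratio difference with a pseudocount of 1 was -0.038 in 5xFAD EGFP against wild type and 0.027 in 5xFAD circRNA against 5xFAD PKR knockout. With 1 library left out it ranged from -0.21 to 0.78 in 5xFAD EGFP, -0.42 to 0.57 in 5xFAD circRNA and -0.39 to 0.60 in 5xFAD PKR knockout against wild type, from -0.46 to 0.11 in 5xFAD circRNA against 5xFAD EGFP, and from -0.29 to 0.29 against 5xFAD PKR knockout. The C4b to C1q difference ranged from -0.47 to 0.023 in 5xFAD circRNA against 5xFAD EGFP, and from -0.033 to 0.68 in 5xFAD circRNA and -0.48 to 0.23 in 5xFAD PKR knockout against wild type. The C1qa to C1qb difference ranged from -0.12 to 0.11 in 5xFAD circRNA against 5xFAD EGFP and from -0.046 to 0.000968 in 5xFAD PKR knockout against wild type. The C1qc to C1qb difference ranged from -0.077 to 0.048 in 5xFAD EGFP and -0.11 to 0.020 in 5xFAD circRNA against wild type, and from -0.063 to 0.00645 in 5xFAD circRNA against 5xFAD EGFP. Depth limits Cfp most, with counting error of 7.14% to 13.2%.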
